A study of Mus musculus with 12 samples.

Results

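The genes described here carry provisional names: a Gm number for a predicted gene model, a name that contains Rik for a transcript first seen among the RIKEN cDNA clones, or a name ending in -ps for a pseudogene. Peaks were taken by gene name alone, a rule that uses no measured value. Earlier results of these data were known when the names were chosen. They made up 5204 of the 33622 m6A peaks listed for WT mice (15.5%), in 3103 genes, and 5373 of the 34935 peaks listed for Tyrobp-/- mice (15.4%), in 3190 genes. In WT mice 3347 of these peaks belonged to Gm names, 1736 to Rik names and 121 to -ps names. The corresponding numbers in Tyrobp-/- mice were 3467, 1800 and 106. A further table, in which the authors compared the genotypes, held 865 such peaks among 5640 (15.3%).

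The data came from MeRIP-seq, in which fragments of poly(A) RNA are pulled down with an antibody against m6A (the IP library) and sequenced beside the same RNA without pull-down (the input library). Hippocampi were taken from 6-month-old male C57BL/6 mice, either Tyrobp-/- animals, whose Tyrobp gene carries a short deletion made with TALEN, or WT littermates. Each genotype had 3 samples, each pooled from 3 mice, and was sequenced as an IP and an input library, which makes 12 libraries with 61189368 to 73554506 valid reads each. The authors called peaks on the 3 samples of a genotype together, so every peak has 1 fold enrichment (IP over input) and 1 false discovery rate (FDR) per genotype, with no spread between samples. The intervals given below are 95% intervals that cover counting error over peaks only, and no p-value is given. Tyrobp itself had 0 peaks in either list, so these lists do not check the knockout. All 8 markers chosen for hippocampal principal neurons had a peak in both lists, as did all 4 for astrocytes, for oligodendrocytes and for microglia.

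The m6A mark is written onto RNA by a complex built around METTL3 and METTL14, mostly where a GGAC-like sequence is present, and in messenger RNA it gathers around the stop codon and in the 3' UTR. Long noncoding RNAs (lncRNAs) and transcribed pseudogenes can carry it as well, although they have no stop codon in use. Many predicted genes lie inside or across from better known genes, and a pseudogene resembles the gene it was copied from, so that reads are harder to assign to them.

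By symbol or synonym and position, 62.8% of the genes in the WT list (1948 of 3103) matched a RefSeq gene of GRCm38.p6. In the Tyrobp-/- list 63.7% did (2032 of 3190). Genes without a match have no gene type here. The shares that follow are of all listed genes of a kind, matched or not. In the WT list 34.2% were lncRNAs, 15.4% pseudogenes and 12% protein coding. Of Rik names in that list 52.6% were lncRNAs and 26.2% protein coding, and 17.9% were not matched. Among -ps names 86.6% were pseudogenes. The types in Tyrobp-/- mice were close to these, with 34.7% lncRNAs, 16.2% pseudogenes and 11.7% protein coding genes.

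Sequence could be read only where a peak reached a transcript start held in RefSeq, and there the first 50 transcribed bases were searched on the transcribed strand for GGAC, the core of the usual m6A motif. In WT mice 151 starts of 147 predicted, Riken or pseudogene names were covered by a peak, and 32 of them held GGAC (21.2%, 15.0 to 28.6). Starts under peaks of genes with other names held it in 21.9% (19.9 to 24.0), and all 32851 starts of the table in 18.9% (18.4 to 19.3). The shares in Tyrobp-/- mice were 23.7% (17.2 to 31.3) and 21.4% (19.4 to 23.6). A difference between the kinds of name was not detectable with these numbers. Shown here are the lncRNA starts that lay in a first or single exon under a peak with an FDR of at most 1e-5 in both genotypes and that held the motif, in lower case with GGAC in capitals, 5' to 3', from RefSeq (GRCm38.p6). Other lncRNA starts passed the same filter without GGAC and, apart from 2010320M18Rik, are not shown. The start of 2010320M18Rik, whose peak was among those with the lowest FDR in both lists and which held no GGAC in this window, stands last for comparison.
4632427E13Rik, chr7:92741410-92741459, minus strand: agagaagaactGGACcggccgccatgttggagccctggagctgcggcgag
4930570G19Rik, chr3:156561638-156561687, minus strand: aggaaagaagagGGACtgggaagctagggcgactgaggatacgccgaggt
4930570G19Rik, chr3:156561697-156561746, minus strand: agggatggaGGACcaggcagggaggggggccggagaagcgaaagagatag
A330040F15Rik, chr19:12596517-12596566, minus strand: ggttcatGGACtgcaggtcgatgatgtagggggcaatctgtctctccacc
D130017N08Rik, chr5:143758354-143758403, plus strand: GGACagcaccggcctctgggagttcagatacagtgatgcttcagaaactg
Gm12522, chr3:108383692-108383741, minus strand: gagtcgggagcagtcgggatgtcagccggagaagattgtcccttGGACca
Gm36371, chr7:6157219-6157268, plus strand: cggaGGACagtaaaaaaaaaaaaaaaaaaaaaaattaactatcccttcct
2010320M18Rik, chr8:70776862-70776911, plus strand: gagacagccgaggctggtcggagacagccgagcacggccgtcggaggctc

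The peaks over these starts differed widely in strength. At 4632427E13Rik the fold enrichment was 55.7 in WT and 14.6 in Tyrobp-/- mice. At A330040F15Rik it was 12.4 and 5.08, and at 4930570G19Rik 3.42 and 2.93. D130017N08Rik had 6.07 in WT and 5.24 in Tyrobp-/- mice, and Gm36371 had 8.47 and 9.99. Gm12522 had 7.57 in WT and 16.2 in Tyrobp-/- mice. The peak of 2010320M18Rik, a lncRNA of 1 exon, had a fold enrichment of 32.0 in WT and 67.7 in Tyrobp-/- mice. Thus 3 of these 7 genes were listed higher in Tyrobp-/- mice and 4 in WT mice, a tally of picked genes that stands for no wider set.

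In each list 1 peak of a predicted, Riken or pseudogene name held microRNA precursors, namely Mir9-2 and, on the opposite strand, Gm51268. The lncRNA C130071C03Rik, a host transcript of miR-9-2, had a peak over the whole hairpin of this brain-enriched microRNA (chr13:83738814-83738885, plus strand) in both lists, at chr13:83738218-83739147 in WT and chr13:83735658-83739117 in Tyrobp-/- mice. This gene was chosen after its values were seen. No other peak of a predicted, Riken or pseudogene name contained a RefSeq hairpin in either list. This made 1 of 5204 peaks in WT and 1 of 5373 in Tyrobp-/- mice, against 36 of 28418 and 28 of 29562 for other names. The mature sequences cut from the Mir9-2 hairpin, with the seed (bases 2 to 8) in capitals, and the precursor itself, which holds no GGAC, are:
mmu-miR-9-5p: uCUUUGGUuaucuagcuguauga
mmu-miR-9-3p: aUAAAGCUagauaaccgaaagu
Mir9-2 hairpin: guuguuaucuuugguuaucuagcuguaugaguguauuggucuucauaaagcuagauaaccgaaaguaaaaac

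Fold enrichment of the hairpin peak was 12.5 in WT and 19.4 in Tyrobp-/- mice, and its FDR was listed at 0 in both. In WT mice the peak began 596 bases before the hairpin and ended 262 bases after it. The Tyrobp-/- peak ended 232 bases after it and reached further upstream across an intron. Over its length C130071C03Rik had 5 peaks in WT mice with fold enrichments of 3.30 to 31.3, and 8 in Tyrobp-/- mice with 4.13 to 19.4. Of these, 1 WT peak and 3 Tyrobp-/- peaks had no overlap in the other list. An FDR of at most 1e-5 was reached by 3 of the 5 WT peaks, but by only 1 of the 8 Tyrobp-/- peaks, the one over the hairpin. An exon label of another gene was carried by 4 of the WT and 5 of the Tyrobp-/- peaks. The highest value in WT, 31.3, belonged to a peak upstream of the hairpin.

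**Figure D1:**
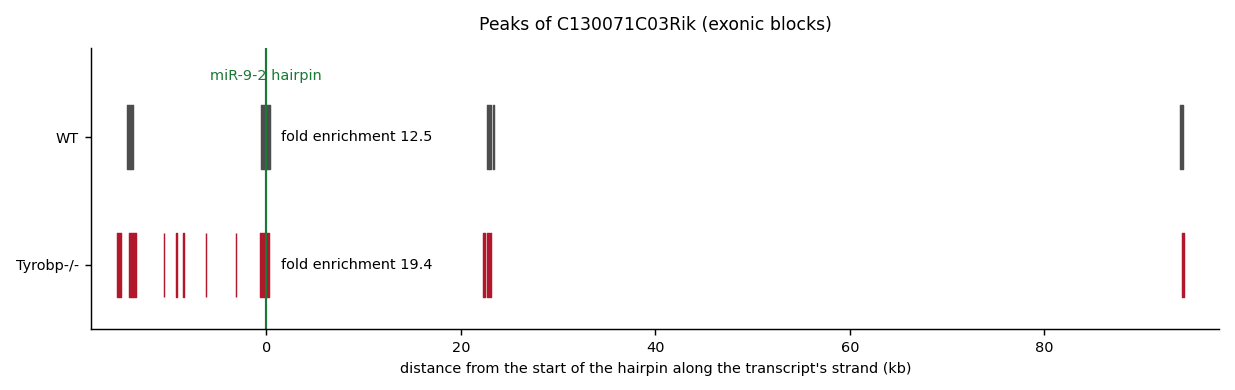
Exonic blocks of the m6A peaks of C130071C03Rik in each genotype, by distance from the start of the miR-9-2 hairpin (kb, 5' to 3'); the green line marks the hairpin. A peak lies over the hairpin in both genotypes, with a fold enrichment of 12.5 in WT and 19.4 in Tyrobp-/- mice, and Tyrobp-/- mice have more small blocks upstream of it. Of the 8 Tyrobp-/- peaks only the hairpin peak had an FDR of at most 1e-5, against 3 of 5 in WT mice.

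The first comparison asks where on the transcript the peaks lie. Peaks of genes with other names lay mostly in UTRs, whereas those of predicted, Riken and pseudogene names were mostly labelled by exon, without a UTR. In WT mice 17.9% of them were annotated to a 3' UTR (16.9 to 19.0), against 52.6% for other names, a difference of -34.6 percentage points (-35.8 to -33.4). Shares in 5' UTRs were 6.92% and 21.1%. By RefSeq gene type, 62.9% of the WT peaks of protein-coding members were labelled UTR, against 9.77% for lncRNAs and 11.2% for pseudogenes. The part of gene type in the difference from other names was not tested. Labels of single-exon transcripts were given to 23.2% of the peaks (22.0 to 24.3) against 3.10%, a difference of 20.1 points (18.9 to 21.2). Of these labels on predicted, Riken and pseudogene names, 11.3% named a gene other than the peak's own. Last exons gave 27.2% against 8.14%, and first exons 15.0% against 3.49%. Internal exons differed least, with 9.88% and 11.6%.

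Nearly the same shares were found in Tyrobp-/- mice. There 17.7% of the peaks were in 3' UTRs and 24.3% in single exons, against 55.1% and 3.29% for other names. Last exons gave 28.3% and first exons 14.5%. Among the kinds of name in WT mice, 5' UTRs were most frequent for Rik names (10.3%) and single exons for -ps names (38.0%, 29.3 to 47.3), followed by Gm names (27.3%) and Rik names (14.1%). The peaks of the authors' table of the comparison were placed alike, with 18.8% in 3' UTRs and 21.5% in single exons, against 59.5% and 2.66% for other names.

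**Figure D2:**
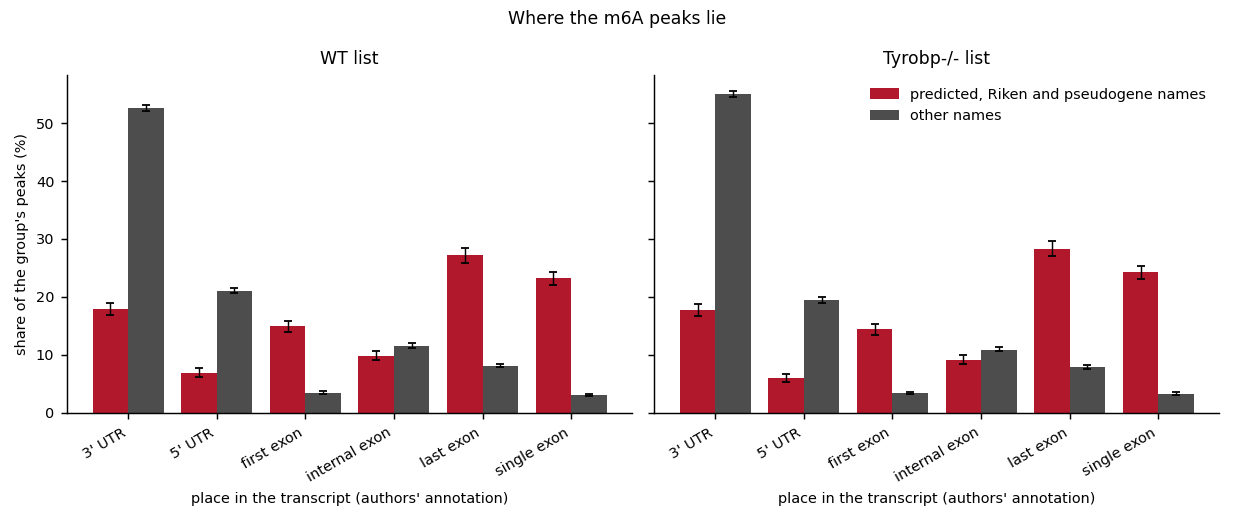
Share of peaks (%) by place in the transcript, as annotated by the authors, for predicted, Riken and pseudogene names (red) and other names (grey) in each genotype; error bars are exact 95% binomial intervals. In both lists UTRs dominate for other names and last or single exons for predicted, Riken and pseudogene names. Shares were not split by gene type.

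Peaks were annotated by position, so a UTR label can belong to another transcript at that place. In WT mice 26.8% of the peaks (25.6 to 28.0) lay inside a RefSeq protein-coding gene of another name, on either strand, against 9.63% of the peaks of other names. Inside means here that any base of an exonic block lay in the span of that gene, introns included. A coding gene listed under an older symbol counts as lying in a gene of another name, so these shares can include the same gene. Among peaks labelled 3' UTR the share was 56.9%, and among those labelled 5' UTR 58.3%, but it was 8.28% in last exons and 19.0% in single exons. By gene type, 69.3% of the UTR-labelled peaks of lncRNAs and 22.9% of those of protein-coding members were inside such a gene. For genes that RefSeq did not match it was 88.3%. Tyrobp-/- mice gave 26.2% for all peaks and 56.4% in 3' UTRs. Without the peaks inside coding genes, the 3' UTR share fell to 10.6% in WT and 10.5% in Tyrobp-/- mice, and the single-exon share was 25.6% and 26.7%. Exon labels named a gene other than the peak's own in 13.0% of cases in WT and 12.4% in Tyrobp-/- mice, where peaks of other names gave 16.5% and 17.4%.

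Among peaks with a single-exon label on genes of at most 10000 bases, the midpoints showed no crowding at the 3' end. Only unspliced peaks lying wholly within the gene were used, so midpoints of peaks wide for their gene are kept from both ends. With each gene cut into 5 equal stretches from its start to its end, 18.5%, 18.9%, 26.1%, 18.8% and 17.6% of 1025 WT peaks had their midpoint in the respective stretch. For other names, whose median gene length was 2837 bases against 1438, the opening stretch held 23.7% and the last 9.64% of 363 peaks. In Tyrobp-/- mice the last stretch held 21.3% of 1114 peaks (18.9 to 23.8) for predicted, Riken and pseudogene names and 11.8% of 391 (8.74 to 15.4) for other names.

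Fold enrichment was higher but statistical support weaker for these peaks. The median in WT mice was 7.32 (6.98 to 7.81) against 5.17 (5.09 to 5.24) for other names, and in Tyrobp-/- mice 7.51 (7.15 to 7.62) against 5.30 (5.24 to 5.40). Among WT peaks the medians were 7.81 for Gm, 6.84 for Rik and 6.98 for -ps names. At the same time 43.7% of the WT peaks had an FDR of at most 1e-5, against 68.2% for other names, a difference of -24.5 points (-25.9 to -23.0). An FDR above 0.05 was listed for 19.2% against 8.72%. Tyrobp-/- mice showed the same pattern, with 41.7% against 67.3% at 1e-5 and 19.8% against 9.42% above 0.05. Peaks inside a coding gene of another name reached 1e-5 in 65.8% of cases in WT mice, and the others in 35.7%. Reads per peak are not in the lists. Many weak peaks shared an exact value: 376 WT peaks had a fold enrichment of 6.84 (7.23%, with a median log10 FDR of -0.56) and 373 Tyrobp-/- peaks one of 6.67 (6.94%, median -0.54), against 3.18% and 3.34% of the peaks of other names.

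**Figure D3:**
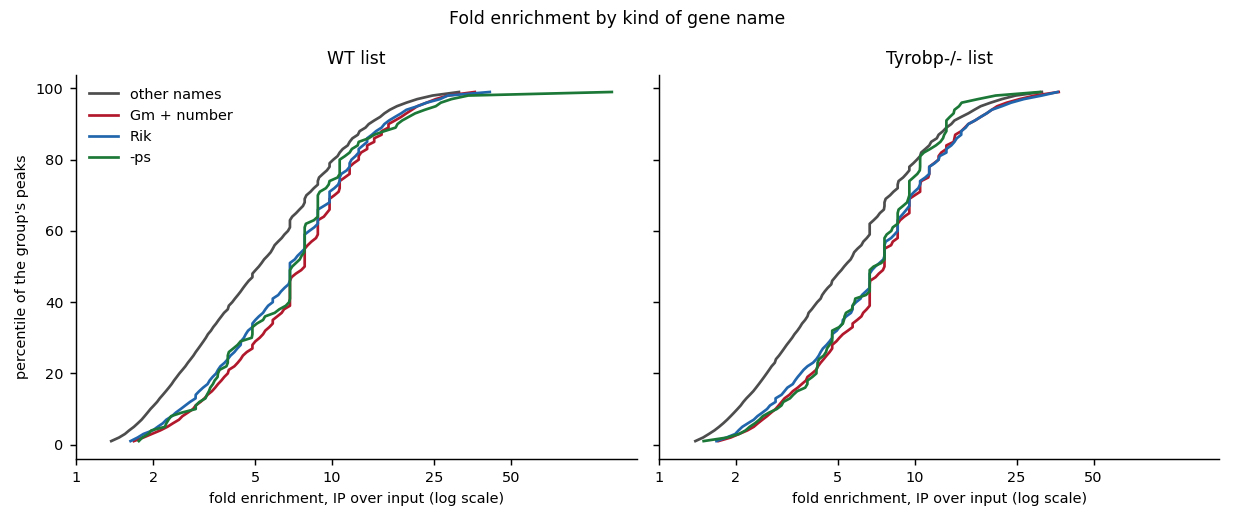
Percentile of each group's peaks against fold enrichment of IP over input (log scale), by kind of name and genotype. The curves of Gm, Rik and -ps names lie to the right of that of other names up to the upper percentiles, and vertical steps mark values shared by many peaks.

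Among predicted, Riken and pseudogene names the highest fold enrichment in WT mice was on Pabpc1l2a-ps (chrX:103066668-103066782), with 169 and no overlapping peak in Tyrobp-/- mice. RefSeq places the coding gene Pabpc1l2a, of the poly(A)-binding protein family, at the same position. It was followed by Gm14308 (166), a protein-coding model on chr2, Rpl35a-ps6 (146), whose peak lies inside Wdr66 on chr5, and 1810013L24Rik (140). Gm12198, on chr11, had 111. In Tyrobp-/- mice Gm6741, a pseudogene of 1 exon on chr17, stood far above the rest with 1010. Gm6286 had 167, Gm3005 128, the Gm20388 peak at chr8:122446227-122446527 108 and Gm11847 97.2. Of the 5 highest in each genotype, the peaks on Pabpc1l2a-ps in WT and on Gm6286, Gm3005 and Gm11847 in Tyrobp-/- mice had no overlap in the other list. Rpl35a-ps6 had 0 peaks of its own in Tyrobp-/- mice, so its WT peak overlapped only a peak of another gene there.

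Among the peaks with the lowest FDR, those of highest fold enrichment mostly fell on the same genes in both genotypes. An FDR of 0 was listed for 299 peaks of predicted, Riken and pseudogene names in WT and for 241 in Tyrobp-/- mice. By fold enrichment among these ties, the leading WT peaks were on 1810013L24Rik (140), 1700047I17Rik2 (60.5), 2610035D17Rik (52.6), 5033430I15Rik (32.4) and 2010320M18Rik (32.0). In Tyrobp-/- mice they were on Gm6741 (1010), 2010320M18Rik (67.7), 1700047I17Rik2 (53.7), 5033430I15Rik (45.9) and 1810013L24Rik (42.5). The Rik genes 2010320M18Rik, 1700047I17Rik2, 5033430I15Rik and 1810013L24Rik were thus in both sets. 1700047I17Rik2 lies on the coding gene Fam177a2, which may be the same gene under its current symbol, while 2610035D17Rik, 5033430I15Rik and 2010320M18Rik are lncRNAs.

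The gene models with most peaks mainly span other genes or list the same place repeatedly. Gm20388, the first of them, had 32 peaks in WT and 30 in Tyrobp-/- mice. Its model reaches over 4434882 bases of chr8 (119910841 to 124345722), and every one of these peaks carried an exon label of another gene. Gm38394 had 13 and 15 peaks, all inside Zc3h11a and Zbed6 on chr1, and all of them overlapped another listed peak of the same gene: the WT list gave the same stretch of 3' UTR as 133619892 to 133620638, 133619871 to 133620648 and 133619940 to 133620629, with fold enrichments of 7.10, 7.01 and 7.21. Gm10544 (11 and 12 peaks) lies within the Pcdha genes, which encode clustered protocadherins of neuronal membranes, and Gm26672 (12 and 18) within the Pcdhga and Pcdhgb genes. Gm37013 had 10 and 18 peaks, of which 7 and 13 were inside Pcdhga1 to Pcdhga4 or Pcdhgb1. 2010111I01Rik (10 and 16), matched as protein coding, lies at Aopep and Fancc, and Aopep may be the same gene under its current symbol. Gm20498 (11 and 10) spans Synj2bp and Cox16. Gm8995 had 14 and 16 peaks, of which 10 and 9 overlapped another peak of the gene. Over all peaks of predicted, Riken and pseudogene names in WT mice, 15.1% (14.2 to 16.1) overlapped another listed peak of the same gene in exonic bases, against 11.2% (10.8 to 11.5) for other names, so listed peaks are not all separate places.

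Pseudogene names were few. The WT list had 82 names ending in -ps, 18 of them named after a ribosomal protein gene, and the Tyrobp-/- list 70, of which 21 were. The gene of the same name without -ps had a peak of its own for 31 in WT and 28 in Tyrobp-/- mice. Because reads of a copy and its source gene can be nearly the same, and how multiply mapped reads were counted is not given in the sources used here, values of pseudogenes are uncertain. Nlrp5-ps had the most peaks over both lists, 4 in WT and 6 in Tyrobp-/- mice, of which 0 had an FDR of at most 1e-5. Ppp4r1l-ps had 6 and 3 peaks, with fold enrichments of 1.95 to 14.6 and 5.83 to 14.3. Zfp862-ps had 5 peaks in WT and 3 in Tyrobp-/- mice, all with an FDR of at most 1e-5 and fold enrichments of 3.51 to 10.5 and 3.99 to 12.5. Klk2-ps (4 and 2 peaks) and Slfn10-ps (3 and 3) had 0 at that level. Psmb7-ps2 ranged from 8.79 to 32.2 in WT and from 4.13 to 4.76 in Tyrobp-/- mice, where 2 of 3 and 0 of 2 peaks had an FDR of at most 1e-5. All of its peaks carried an exon label of another gene. Lgals1-ps2 had 3 and 2 peaks with at most 4.10 in WT and 10.5 in Tyrobp-/- mice, and Ube2d-ps 2 and 3 peaks with at most 7.66 and 10.3. An FDR of at most 1e-5 was reached by 0 and 1 of the Lgals1-ps2 peaks and by all of the Ube2d-ps peaks.

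The second comparison asks which peaks were listed in 1 genotype only. A peak of any gene at the same place, on either strand, counted as overlap. In WT mice 1308 peaks of predicted, Riken and pseudogene names overlapped no peak of the Tyrobp-/- list (25.1%, 24.0 to 26.3), where all WT peaks gave 20%. Conversely, 1453 in Tyrobp-/- mice had no overlap in the WT list (27.0%, 25.9 to 28.3), where all peaks gave 22.1%. Against other names the shares were 6.09 points (4.84 to 7.37) and 5.87 points (4.61 to 7.16) higher. Of -ps names 33.9% of WT peaks were in that list only (25.5 to 43.0), of Gm names 25.7% and of Rik names 23.5%. At the level of genes, 2400 of 3893 were in both lists (61.6%), 703 in the WT list only and 790 in the Tyrobp-/- list only, while 84.9% of 13886 genes with other names were in both. Any peak of a gene sufficed for a list. In WT mice these genes had 1.68 peaks each, and 61.9% had a single peak, against 2.24 and 40.9% for other names. The part of this in the shares was not tested.

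Within classes of like FDR the direction turned around at a log10 FDR above -20. Among WT peaks with a log10 FDR between -20 and -5, 9.68% of those of predicted, Riken and pseudogene names were in the WT list only, against 16.3% for other names, a difference of -6.64 points (-8.56 to -4.48). Between -5 and -2 the shares were 26.3% and 35.3%, and above -2 they were 52.0% and 58.8%. In Tyrobp-/- mice the same 3 classes gave 8.61% against 19.1%, 29.7% against 38.6% and 53.8% against 60.7%, and each difference had an interval below 0. Below -20 the shares were too close to tell apart, with 5.26% against 5.49% between -50 and -20 in WT mice. These classes set peaks against the whole other list, and a peak of any gene counted as overlap. Peaks of predicted, Riken and pseudogene names inside a coding gene of another name were in the WT list only in 16.1% of cases. For the rest it was 28.4%, and the part of this in the classes was not tested. With both lists limited to a log10 FDR of at most -5, predicted, Riken and pseudogene names were again the more often listed in 1 genotype only, with 15.0% against 10.6% in WT mice (a difference of 4.43 points, 2.96 to 6.01) and 14.1% against 11.7% in Tyrobp-/- mice (2.43 points, 0.975 to 4.00).

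**Figure D4:**
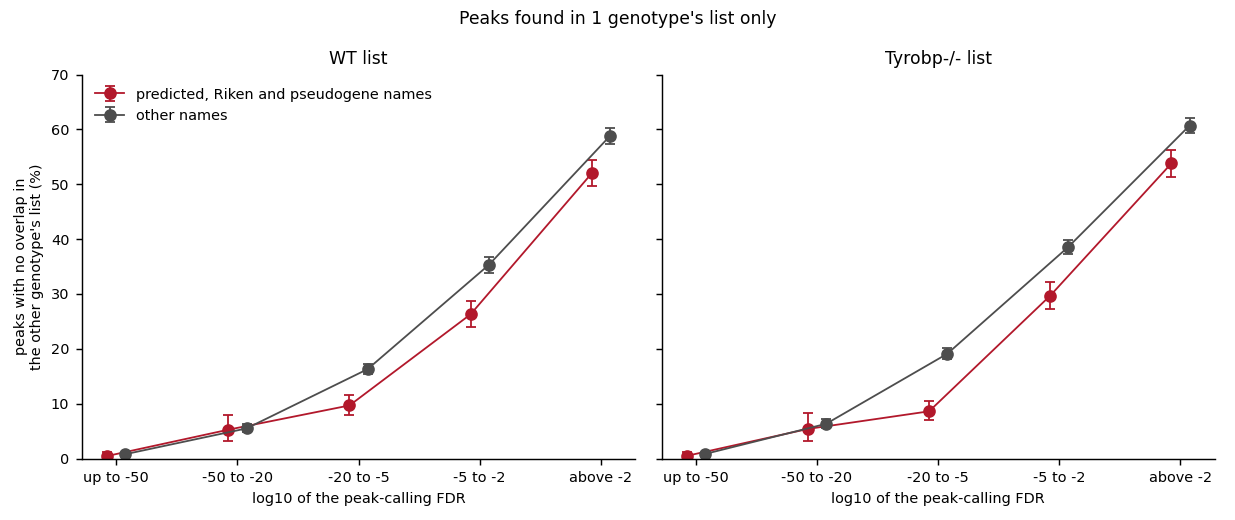
Share of peaks (%) without an overlapping peak in the other genotype's list, by log10 of the peak-calling FDR, for predicted, Riken and pseudogene names (red) and other names (grey); error bars are exact 95% binomial intervals. At a log10 FDR above -20 the red points lie below the grey ones in both lists, for example at 9.68% against 16.3% between -20 and -5 in WT mice.

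Named by their FDR, the WT peaks absent from the other list were on Gm38393 (chr7:59983124-59983184, fold enrichment 1.48), inside the imprinted Snrpn and Snurf locus, Gm45241 (7.27), Gm22820 inside the muscarinic receptor gene Chrm1 (2.87), Pisd-ps2 (2.64), the lncRNA C230057M02Rik (3.91) and Pabpc1l2a-ps (169). Gm38393 had 4 other peaks in Tyrobp-/- mice, the nearest 3444 bases away, and the rest of these genes had 0 peaks there. The Tyrobp-/- list gave Gm42372 (1.67), the pseudogene Gm10076 (3.00), Gm17018 at Dpcd (2.87), 1810022K09Rik (2.38), Gm6286 (167) and Gm21972 at the proteasome gene Psmd1 (1.38). Gm42372 and Gm17018 had other WT peaks 299 and 150 bases away. Of these 12 peaks, 9 had a fold enrichment under 4, and the others were on Gm45241, Pabpc1l2a-ps and Gm6286.

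The third comparison sets fold enrichment side by side in the genotypes where a peak of the same gene overlapped in both lists. This gave 3028 pairs in 2265 genes among 23027 pairs in all. The median log2 ratio of Tyrobp-/- over WT was -0.01 for predicted, Riken and pseudogene names and 0.05 over all pairs. A ratio of at least 2 in favor of Tyrobp-/- mice was reached by 338 pairs (11.2%, 10.1 to 12.3), against 7.17% of all pairs, and in favor of WT mice by 329 (10.9%, 9.78 to 12), against 6.28% of all pairs. The changes were thus spread to both sides in nearly equal number. With 1 value per genotype, no test of a single pair was possible.

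Pairs with weak support were more often changed than well supported ones, and the shares of predicted, Riken and pseudogene names exceeded those of other names in the well supported pairs. Where the FDR was at most 1e-5 in both lists, 8.62% of 1485 pairs (7.24 to 10.2) were at least 2 times higher and 7.54% (6.25 to 9.00) at least 2 times lower in Tyrobp-/- mice, against 4.30% (3.98 to 4.63) and 3.22% (2.95 to 3.51) of 15474 pairs of other names. The remaining pairs were 1543 of the 3028, against 4525 of 19999 for other names. In them the shares were 13.6% and 14.1%, near the 14.3% and 13.7% of other names. Pairs with other names also had lower fold enrichments, with a median of 5.66 in WT mice against 8.16 among the well supported pairs, and the part of this in the spread was not tested. By place, 8.03% of 3' UTR pairs were higher (5.98 to 10.5) and 7.36% lower (5.40 to 9.75). Of single-exon pairs 13% were higher (10.6 to 15.8) and 12% lower (9.61 to 14.7), and differences between places were not tested.

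**Figure D5:**
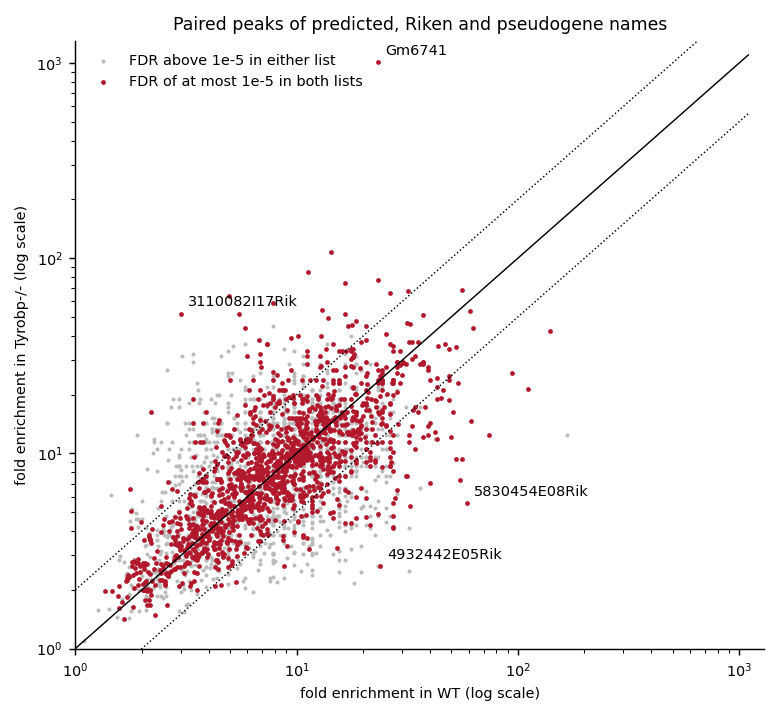
Fold enrichment in Tyrobp-/- against WT mice (both log scales) for the 3028 overlapping pairs of predicted, Riken and pseudogene names; red points had an FDR of at most 1e-5 in both lists, the solid line marks equal values and the dotted lines a ratio of 2. Points scatter to both sides of the line, and Gm6741 stands apart with 23.4 in WT and 1010 in Tyrobp-/- mice.

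Gm6741 had the largest ratio among well supported pairs. Its fold enrichment was 23.4 in WT and 1010 in Tyrobp-/- mice, a log2 ratio of 5.43, over peaks of 1 exon that ended at the same base (chr17:91237139-91237557 and chr17:91236811-91237557). For 3110082I17Rik, a protein-coding gene on chr5, the values were 2.99 and 52.0 (4.12), but the WT peak spanned 139415776 to 139460527 and the Tyrobp-/- peak 139426875 to 139427800, so that they hardly covered the same bases. Another WT peak of this gene over the Tyrobp-/- peak had 22.3. The lncRNA 6430584L05Rik had 4.94 and 63.9 (3.69), and a further WT peak over the Tyrobp-/- one had 18.1. Gm40841, a lncRNA on chr13, had 5.48 and 51.5 (3.23), where a further WT peak had 13.2.

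The other 4 pairs with the largest ratios lay close together. Gm48899, inside the zinc finger gene Zfp874b, had 7.81 in WT and 59.1 in Tyrobp-/- mice (2.92), and a further Tyrobp-/- peak over the WT one had 12.9. The peak of Gm20388 at chr8:122446317-122446527 had 14.3 and 108 (2.92). Gm15506 had 11.3 and 84.8 (2.91), and 4930562F07Rik 5.86 and 43.8 (2.90), both lncRNAs. At 4930562F07Rik another Tyrobp-/- peak over the same WT peak had 5.99, close to the WT value.

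Toward WT, the largest ratio was found in 5830454E08Rik, a lncRNA on chr9, with 58.6 in WT and 5.56 in Tyrobp-/- mice, a log2 ratio of -3.40. For 4932442E05Rik, inside the kinase gene Dyrk2, the values were 23.8 and 2.65 (-3.17), but another WT peak over the Tyrobp-/- one had 3.88. Gm43401, inside Lingo4, had 54.7 and 7.31 (-2.90), and Gm14042 27.3 and 4.15 (-2.72). Gm12689, inside the autophagy gene Atg4c, had 27.3 and 4.18 (-2.71). The pseudogenes Gm18706 and 1600029O15Rik had 32.7 and 5.35 (-2.61), with a further Tyrobp-/- peak of Gm18706 at 10.5, and 55.7 and 9.31 (-2.58), and Gm15009 had 74.2 and 12.4 (-2.58). In 9 of the 16 pairs named here a further listed peak of the gene overlapped either peak, so the ratio depends on which peaks are paired. Of all 16 pairs, 5 lay inside a coding gene of another name or in a Gm model that spans other genes, and 8 kept a partner when each peak had to cover 50% of the other.

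The authors' table of the comparison held 865 rows of predicted, Riken and pseudogene names and 4775 of other names. Of the 865, 75.0% overlapped a WT peak (72.0 to 77.9) and 85.8% a Tyrobp-/- peak (83.3 to 88.0), against 75.6% and 87.3% for other names.

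Function could be named for few of these genes. A GO term was listed for 483 of the 3893 genes (12.4%), against 95.9% of genes with other names, and a KEGG pathway for 34 (0.873%), against 38.2%. For many of these the term was only the root of its branch, with 321 of the 483 under molecular_function (66.5%, against 15.4% of other genes with a term), 304 under biological_process (62.9% against 12.5%) and 297 under cellular_component (61.5% against 9.61%). Among more specific terms, chosen after their values were seen, 70 of the 483 were listed under nucleic acid binding (14.5% against 7.62%) and 56 under regulation of transcription (11.6% against 7.44%), while 11 were listed under plasma membrane (2.28% against 21.9%).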

How the data were processed

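Adapters and poor reads were removed by the authors with fastp, reads were mapped with HISAT2 to Ensembl v96, and exomePeak compared IP with input over all 3 samples of a genotype at a time, with annotation by ChIPseeker. Per peak, the authors deposited the ratio of IP over input as fold enrichment, a p-value, and log10 values of the p-value and the FDR. Per library, the authors deposited the count of raw and valid reads and the percent of bases passing quality limits. The table of the comparison also holds the authors' own fold changes, p-values and FDR, which were not used.

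Here members were taken by gene name, by the pattern Gm and a number, Rik, or a final -ps. Members and lists were chosen with earlier results of these data known. Shares have exact binomial (Clopper-Pearson) 95% intervals, differences Newcombe intervals, and medians order-statistic intervals. Overlap meant 1 bp of the spans, and pairs were mutual best overlaps within a gene. Genes and sequences were matched to RefSeq GRCm38.p6, whose gene table gives no strand. Named genes were the 8 with most peaks, per list, at an FDR of at most 1e-5, the 5 peaks of highest fold enrichment, the 5 of lowest FDR and the 6 list-only peaks of lowest FDR, the 8 largest and 8 smallest ratios at an FDR of at most 1e-5, and the 8 -ps names with most peaks. lncRNA starts and C130071C03Rik fall outside this rule. Replicates were pooled by the authors, so p-values would need values per sample. Alternatives were stricter FDR, fold enrichment of at least 4, 1 peak per gene, other overlaps and ratios. Simulated lists served to test the functions. The software was Python 3.11.15, numpy 2.4.6, pandas 2.3.3, scipy 1.17.1, statsmodels 0.14.6 and matplotlib 3.10.9.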

Additional observations from a re-analysis of the deposited data

How the results depend on the processing

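Placement kept its direction against other names under all alternatives run, none of which split the peaks by gene type. The single-exon share of predicted, Riken and pseudogene names became 24.9% in WT and 25.7% in Tyrobp-/- mice with 1 peak per gene, 17.2% and 17.1% at a log10 FDR of at most -5, 25.1% and 26.5% without genes beside a listed gene of another name, and 25.6% and 26.7% without peaks inside a RefSeq coding gene of another name. The 3' UTR share became 29.7% and 30.1% at a log10 FDR of at most -5, 16.7% and 16.3% with fold enrichments from 4 upward, 13.3% and 13.2% without genes beside a listed gene of another name, 10.6% and 10.5% without peaks inside coding genes, and 16.7% and 16.4% with 1 row per set of overlapping rows. Median fold enrichment was 8.18 and 8.31 with 1 peak per gene and 7.94 and 7.86 at a log10 FDR of at most -5, still above other names.

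The share listed in 1 genotype only was 54.4% in WT and 56.0% in Tyrobp-/- mice with a reciprocal overlap of 50%, 15.0% and 14.1% with both lists limited to a log10 FDR of at most -5 (4.43 and 2.43 points above other names), and 28.4% and 30.4% without peaks inside coding genes. With peaks at a log10 FDR of at most -5 set against the whole other list it was 5.45% and 5.13%, and the difference from other names reversed to -0.85 points (-1.78 to 0.22) and -2.29 points (-3.21 to -1.24).

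Pairs at least 2 times higher in Tyrobp-/- mice numbered 338 of 3028, and 661 at a ratio of 1.5 (21.8%, against 16.3% of all pairs), 130 at 3 (4.29% against 2.74%), 128 of 1485 at a log10 FDR of at most -5 in both lists (8.62% against 4.68%), 180 of 2018 with a reciprocal overlap of 50% (8.92% against 5.45%) and 16 of 284 with identical exonic blocks (5.63% against 3.65%). Lower pairs numbered 329, and 641 (21.2% against 13.4%), 123 (4.06% against 2.26%), 112 (7.54% against 3.60%), 184 (9.12% against 4.78%) and 30 (10.6% against 3.78%) under the same settings. Centring on the median of all pairs gave 322 higher and 346 lower pairs. All 16 named pairs kept their direction when centred, 8 of them had a partner at a reciprocal overlap of 50%, with the same direction, and 0 had identical blocks. The alternatives on coding genes and overlapping rows were added after the data were seen.

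No paired analysis was possible because the lists hold 1 value per genotype over pooled replicates, and leaving out a replicate was not possible either. The planned motif density in peaks was not run, since no genome sequence was used here. Depth behind single peaks is unknown.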
